A study of Rattus norvegicus with 8 samples.

Results

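The genes that copy DNA were followed in rat liver at 3 ages and after surgery: 44 genes of DNA replication and the S phase were listed, and 39 of them had a probe set carrying 1 gene symbol, out of 14506 genes measured. Mcm3, Mcm4, Pole2, Dbf4 and Chaf1a were not measured. A gene with several probe sets (2 of the 39, Rrm1 and Rrm2) was represented by the one with the highest mean. All livers came from female Wistar rats, an outbred strain, and each group had 2 arrays (Affymetrix Rat Gene ST 1.0). The groups were healthy animals of 3 ages (12, 4 and 2 weeks), and the liver left 8 h after partial hepatectomy (PH), in which 2/3 of the organ, the lateral lobes, was removed. The labels do not state how old the operated rats were, and sham surgery is not among the groups, so in comparisons with PH the operation, the age and the hour of sampling cannot be told apart. By title the arrays of 1 group are biological replicates, whereas the design text speaks of duplicate processing, so p-values measure the spread between these arrays, which may be technical in part. Every level is an RMA value on the log2 scale, where a difference of 1 is a 2-fold change.

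Replication starts when the origin recognition complex, Cdc6 and Cdt1 load the ring of MCM proteins onto DNA in G1. Cdc7 kinase, Mcm10, Cdc45 and the GINS complex then turn the loaded ring into an active helicase, and polymerases, the sliding clamp PCNA and enzymes of nucleotide synthesis do the copying. Most of these genes are switched on together before S phase by E2F transcription factors, which pocket proteins such as Rb hold back in resting cells. Hepatocytes of the growing liver divide, those of the adult rest, and removal of liver tissue brings them back into the cycle, with S phase known to follow the first hours after surgery by a long lag.

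The promoters of the members were searched for the letters of known regulatory sites. RefSeq gave a window from 250 bases before to 50 bases after the annotated start (build GRCr8) for 34 of the 39 genes. The letters of an E2F site, searched on both strands as TTTCCCGC, TTTGGCGC, TTTCGCGC or TTTGCCGC with overlapping matches counted, stood in 15 of the 34 (44.1%), against 651 of 27457 promoters of all genes (2.37%) and 381 of 11951 promoters of genes on the array (3.19%). All 5 measured genes of the MCM helicase family, Mcm2, Mcm5, Mcm6, Mcm7 and Mcm8, held them. Their matches nearest the start are shown, since each of these 5 genes had both 2-week arrays above both 12-week arrays, with the E2F letters in capitals.
Mcm2 (chr4:122918088-122918113, minus strand): ccggtTTTCGCGCGAAAacccgtggc
Mcm5 (chr19:13488796-13488821, plus strand): aggttggttTTTCCCGCgaaagtcgg
Mcm6 (chr13:42404471-42404496, minus strand): ctgctTTTGGCGCGAAAttagcgtgt
Mcm7 (chr12:22163214-22163239, minus strand): gtgacgacgTTTCGCGCcaatttcgg
Mcm8 (chr3:140539624-140539649, plus strand): gtcataggcGCGCCAAAaaagaactt

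In Mcm2 and Mcm6 the capitals are overlapping matches on opposite strands, read as 1 stretch of letters. Counted from the annotated start, the matches nearest to it began at position -10 in Mcm2, -8 in Mcm5, -135 in Mcm6, -52 in Mcm7 and -14 in Mcm8. The other 10 genes with the letters were Cdt1, Gins1, Gins3, Gmnn, Lig1, Pola1, Pole, Rfc3, Rpa2 and Tyms. A CCAAT box (CCAAT, both strands) stood in 20 of the 34 promoters (58.8%, against 39.6% of all), and the CHR letters TTTGAA or TTCGAA in 7 (20.6%, against 21.0% of all). A match describes these letters and is no evidence of binding. The whole windows of 2 genes that rose at 2 weeks are given because 1 holds the searched E2F letters and the other does not. The Mcm10 window does hold the similar letters TTTGGCGG, which were not searched. So do the windows of Cdc45, Cdc7, Dut and Pola2 and, on the opposite strand, that of Rpa1, which were also counted as without.
Mcm6 (chr13:42404303-42404602, minus strand): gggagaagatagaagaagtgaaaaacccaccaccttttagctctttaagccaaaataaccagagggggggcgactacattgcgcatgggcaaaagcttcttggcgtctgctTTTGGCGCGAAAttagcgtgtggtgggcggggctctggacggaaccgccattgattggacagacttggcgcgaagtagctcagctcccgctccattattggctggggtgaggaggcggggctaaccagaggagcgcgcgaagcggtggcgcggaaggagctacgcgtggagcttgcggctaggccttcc
Mcm10 (chr17:78175137-78175436, plus strand): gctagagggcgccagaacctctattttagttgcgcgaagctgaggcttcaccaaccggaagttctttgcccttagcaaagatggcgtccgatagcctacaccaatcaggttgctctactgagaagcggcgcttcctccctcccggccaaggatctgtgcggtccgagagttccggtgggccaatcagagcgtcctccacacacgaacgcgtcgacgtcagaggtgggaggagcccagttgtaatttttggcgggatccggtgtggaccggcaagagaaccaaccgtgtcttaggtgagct

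The 12-week arrays differed from each other. Olfactory, vomeronasal and taste receptors, 1264 genes not known for a role in liver, averaged 4.71 and 3.94 on the first and second of them, 4.59 and 4.14 on the PH arrays and 4.02 to 4.08 on the other 4. On the first 12-week array 26 of the 39 replication genes lay at or below the 95th percentile of the receptor genes, against 3 on the second, 18 and 8 on the PH arrays, 6 and 5 at 4 weeks, and 0 and 4 at 2 weeks. At such a level signal and background cannot be told apart. The 12 hepatocyte markers, albumin among them, were high on every array (means 12.77 to 12.95), which checks the tissue.

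Over the 39 genes, the median of the group means was 6.98 at 2 weeks, 6.64 at 4 weeks, 6.31 at 12 weeks and 6.03 after PH. Levels of different genes depend on their probes and were not ranked against each other. The 2-week mean was the highest of the 4 for 38 of the 39 genes, the exception being Tk1, and the lowest mean belonged to PH for 22, to 12 weeks for 15 and to 4 weeks for 2.

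**Figure D1:**
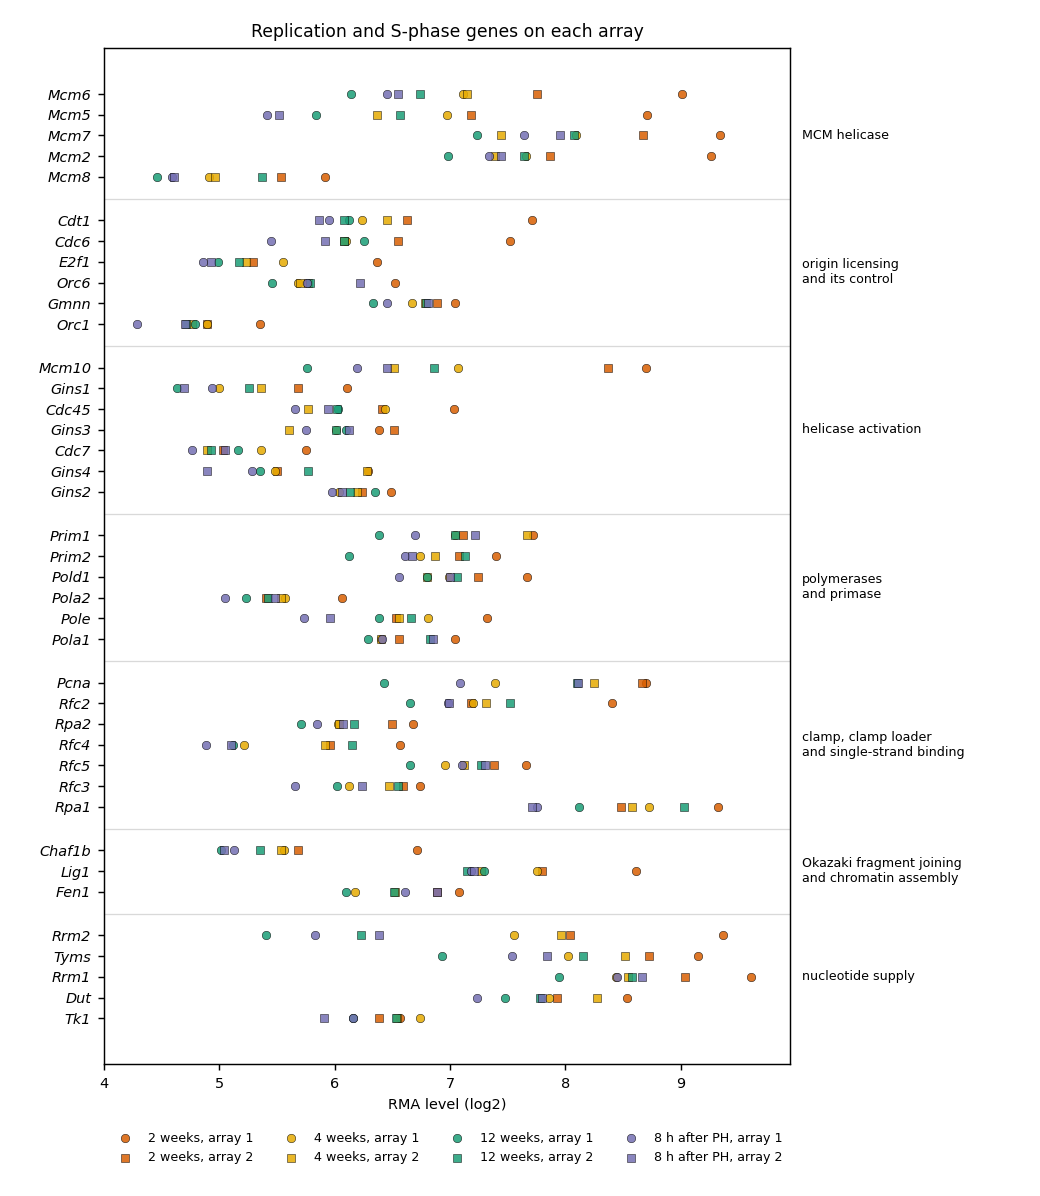
RMA level (log2, horizontal) of each measured gene on each of the 8 arrays, genes grouped by role; colour gives the group, circles array 1 and squares array 2. The first 2-week array (orange circles) lies at the right end for 37 of the 39 genes.

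The livers of 2-week rats carried more replication gene RNA than those of 12-week rats. All 39 genes differed upwards, with a median of 0.68 where all genes had -0.01. In 27 genes both 2-week arrays lay above both 12-week arrays, a separation that 17.6% of all genes showed. Of these, 3 rose at an adjusted p under 0.05 (limma, Benjamini-Hochberg over 14506 genes), against 1.29% of all genes higher, and 17 had an unadjusted p under 0.05, against 6.44%. The 3 were Rrm2, Mcm10 and Mcm6. On the first 12-week array they read 5.40, 5.76 and 6.14, below the receptor genes' 95th percentile there (6.36), so the size of their rise is uncertain. Without the first 2-week array, or without the first 12-week array, 0 were called (36 of 39 still above 0 in each case), and the median became 0.40 and 0.44. Without the second 2-week array 4 were called (Mcm5, Mcm6, Rrm2 and Cdt1), and without the second 12-week array 3 (Mcm10, Rrm2 and Tyms). In bulk tissue, fewer cells of a type and less RNA per cell cannot be told apart.

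Rrm2, the regulated subunit of ribonucleotide reductase, which makes the deoxynucleotides for replication, changed most. It read 9.37 and 8.04 at 2 weeks, 7.55 and 7.96 at 4 weeks, 5.40 and 6.23 at 12 weeks, and 5.83 and 6.38 after PH. Both 2-week arrays stood above both 4-week arrays, and these above all 12-week and PH arrays. The rise from 12 weeks to 2 weeks was 2.89 ± 0.46 (log2, SE; 7.42-fold, limma adjusted p = 0.0186), and it passed in 11 of 15 alternatives (adjusted p 0.0051 to 0.0989). The other Rrm2 probe set, which was not used in the test, read 8.68 and 7.63 at 2 weeks, 7.08 and 7.65 at 4 weeks, 5.49 and 5.82 at 12 weeks and 5.62 and 6.11 after PH. Its first 4-week array lay below its 2-week arrays and its second just above the lower of them.

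Mcm10, which helps to start the helicase and recruits polymerase alpha, was the most uniform of the called genes at 2 weeks. Its levels were 8.70 and 8.37 at 2 weeks, 7.07 and 6.51 at 4 weeks, 5.76 and 6.86 at 12 weeks, and 6.19 and 6.45 after PH. The 2-week arrays were clear of all others, both PH arrays were below both 4-week arrays, and the 12-week range overlapped both of these groups. The rise over 12 weeks was 2.22 ± 0.38 (4.67-fold, limma adjusted p = 0.0234; it passed in 10 of 15 alternatives, adjusted p 0.00835 to 0.169).

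Mcm6, a subunit of the helicase ring, stepped down with age. It read 9.01 and 7.75 at 2 weeks, 7.11 and 7.15 at 4 weeks, 6.14 and 6.74 at 12 weeks, and 6.45 and 6.55 after PH. No array of one age overlapped another age, and the PH arrays lay between the 12-week arrays. The rise at 2 weeks was 1.94 ± 0.40 (3.85-fold, limma adjusted p = 0.0486; it passed in 8 of 15 alternatives, adjusted p 0.0187 to 0.194).

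The other genes of the MCM family differed in the same direction without passing. Mcm5, a ring subunit, read 8.71 and 7.18 at 2 weeks, 6.97 and 6.37 at 4 weeks and 5.84 and 6.57 at 12 weeks, with the 2-week arrays above the rest and a difference of 1.74 ± 0.48 (limma adjusted p = 0.153). The ring subunits Mcm7 and Mcm2 differed by 1.36 and 1.25, and Mcm8, a relative used in repair of broken forks, by 0.81. With 1 array left out at a time, the difference ran from 0.98 to 2.5 for Mcm5 and from 0.56 to 1.94 for Mcm2, both lowest without the first 2-week array, and from 0.36 (without the first 12-week array) to 1.26 for Mcm8. All 5 measured genes of the family had an unadjusted p under 0.05. Mcm2 shows how far the 2-week arrays were apart, at 9.26 and 7.87, beside 7.66 and 7.39 at 4 weeks and 6.98 and 7.64 at 12 weeks.

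Licensing genes differed by 0.37 to 1.07 from 12 to 2 weeks, 0 of 6 passing in limma and 2 at an unadjusted p under 0.05. Cdt1, which loads the MCM ring, read 7.71 and 6.63 at 2 weeks, 6.24 and 6.45 at 4 weeks, 6.12 and 6.08 at 12 weeks, and 5.95 and 5.86 after PH. Its ages did not overlap, both PH arrays were below all others, and its difference of 1.07 was 0.53 without the first 2-week array. Cdc6, its partner, read 7.52 and 6.55 at 2 weeks and 6.08 to 6.25 on the 4-week and 12-week arrays, which were not separated, and 5.45 and 5.92 after PH. Its difference of 0.87 was 0.39 without the first 2-week array. Gmnn, the inhibitor of Cdt1, read 7.04 and 6.89 at 2 weeks, 6.67 and 6.78 at 4 weeks, 6.33 and 6.79 at 12 weeks and 6.45 and 6.81 after PH, so that all 8 arrays lay close together. E2f1, an activator of many of these genes, read 6.37 and 5.29 at 2 weeks, 5.55 and 5.23 at 4 weeks, 4.99 and 5.17 at 12 weeks and 4.86 and 4.93 after PH. Its second 2-week array lay inside the 4-week range, and its difference from 12 weeks, 0.76, was 0.22 without the first 2-week array.

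Among the 7 measured genes of helicase activation, Mcm10 was called and the rest differed by 0.13 (Gins2) to 0.95 (Gins1). The 6 polymerase and primase genes differed by 0.24 (Pola1) to 0.71 (Prim1), with 2 of 6 separated between the ages and 0 at an unadjusted p under 0.05. In the clamp group Pcna, the sliding clamp, read 8.70 and 8.66 at 2 weeks, 7.39 and 8.25 at 4 weeks, 6.43 and 8.10 at 12 weeks, and 7.09 and 8.11 after PH. The 2-week arrays were close together and above the rest, while in each other group the second array was far above the first. Its difference of 1.41 ± 0.56 did not pass (limma adjusted p = 0.383), and it was 0.58 without the first 12-week array. The loader and single-strand binding genes Rfc2, Rfc3, Rfc4, Rfc5, Rpa1 and Rpa2 differed by 0.32 to 0.70, with Rfc2 at 0.09 without the first 2-week array and Rfc4 at 0.12 without the first 12-week array.

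Of the genes that join Okazaki fragments and rebuild chromatin, Chaf1b differed by 1.01, Lig1 by 0.98 and Fen1 by 0.68, all with separated arrays. In nucleotide supply, Tyms, which makes thymidylate, differed by 1.39 and Rrm1, the large reductase subunit, by 1.06. The other Rrm1 probe set, which was not used in the test, read low on every array. It gave 4.45 and 4.15 at 2 weeks and 4.04 and 4.34 at 12 weeks, which overlapped. Without the first 2-week array Chaf1b differed by 0.50 and Lig1 by 0.58, and without the first 12-week array Tyms differed by 0.78. Tk1, which salvages thymidine, read 6.57 and 6.38 at 2 weeks, 6.74 and 6.54 at 4 weeks, 6.16 and 6.53 at 12 weeks, and 6.16 and 5.91 after PH. Members whose promoter held the searched E2F letters differed by a median of 0.95 (n = 15), and those without by 0.61 (n = 19). Their ranges, 0.24 to 1.94 and 0.13 to 2.22, overlapped. The group without includes promoters, such as that of Mcm10, with the unsearched letters TTTGGCGG. The 5 without a window had a median of 0.76.

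**Figure D2:**
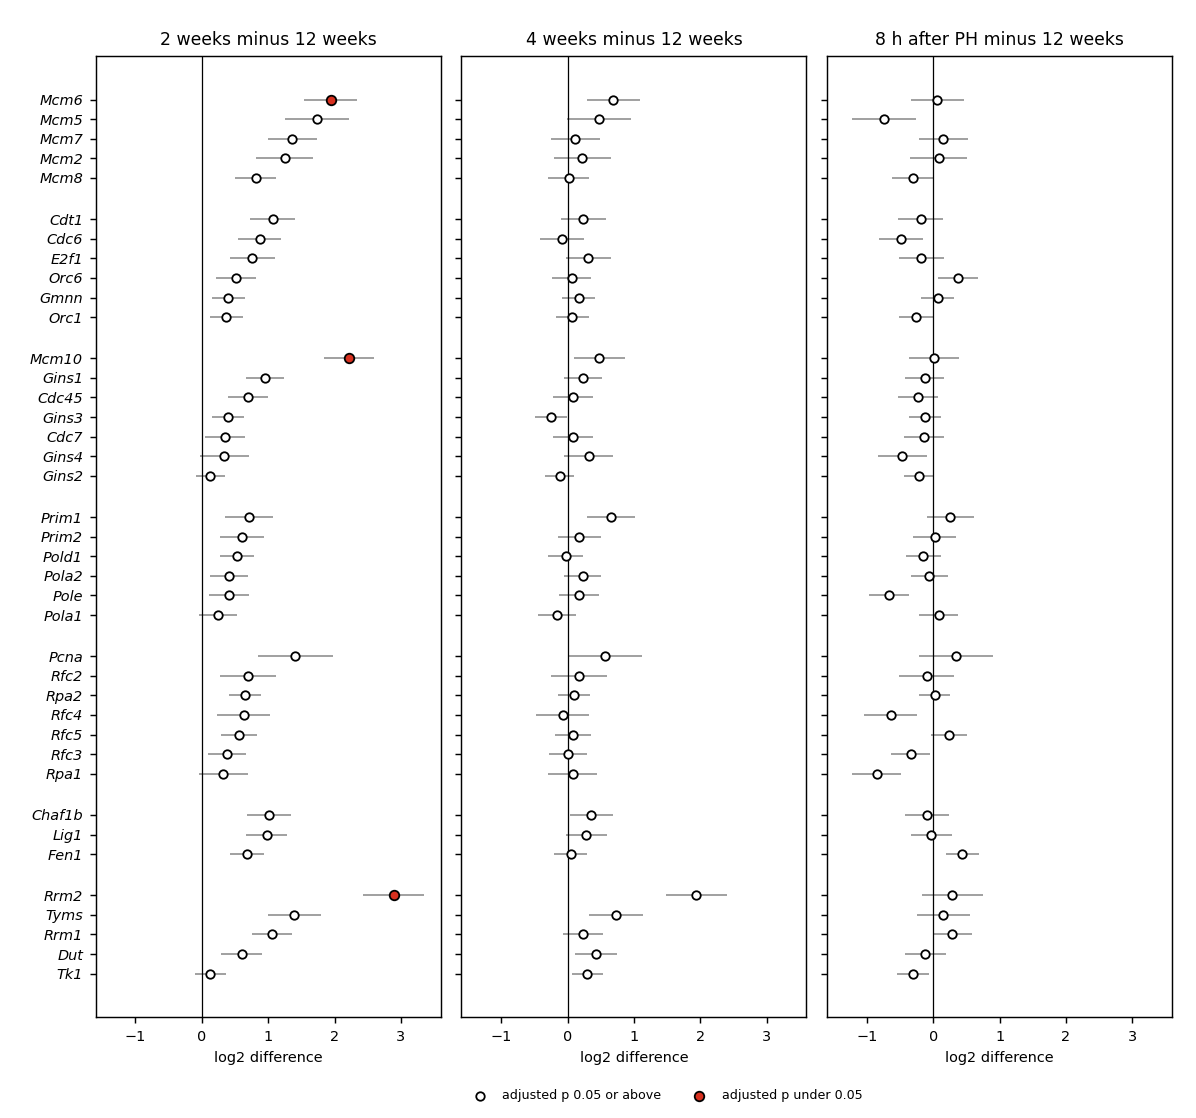
Log2 difference from 12 weeks (horizontal, bars are the moderated standard error) for each gene at 2 weeks, 4 weeks and 8 h after PH; red points have an adjusted p under 0.05. The 3 red points, Mcm6, Mcm10 and Rrm2, are in the 2-week panel, and all panels use the same 12-week arrays.

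The 2-week arrays were not alike. The first was above the second for 38 of the 39 genes, by a median of 0.61, while over all genes the median gap was 0.01. The gap was 1.53 for Mcm5 and -0.13 for Gins3, the exception. The second array alone lay above both 12-week arrays for 27 of the 39 genes, beside 28.2% of all genes. Markers of several other cell types were also higher on the first, while those of hepatocytes (6 of 12 higher, median gap 0.01) and lymphocytes (3 of 9, -0.11) were not. There the 9 measured of 12 erythroid markers averaged 7.51, against 6.54 on its partner, and the 8 neutrophil markers 7.48 against 5.70, whereas the 12 hepatocyte markers stood at 12.95 and 12.92. Smaller median gaps were found for endothelial (0.46, 6 of 6 higher), cholangiocyte (0.42, 5 of 5), stellate and fibroblast (0.39, 9 of 10) and macrophage markers (0.25, 6 of 9).

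Erythroid markers were also highest at 2 weeks and next at 4 weeks. Their summed level (log2 of the summed linear values) was 10.58 to 11.41 at 2 weeks, 10.02 to 10.29 at 4 weeks, 9.04 to 9.07 at 12 weeks and 8.63 to 8.74 after PH. Of the 9, 3 rose at 2 weeks over 12 weeks by limma, where 1.29% of all genes were called higher. Alas2, the first enzyme of heme synthesis in red cells, rose by 2.74. Ahsp, which binds alpha-globin, rose by 3.14, and Slc4a1, the red cell anion exchanger, by 2.01. The neutrophil sum was 8.79 to 11.83 at 2 weeks, 8.38 to 8.71 at 4 weeks, 7.97 to 8.18 at 12 weeks and 8.33 to 8.49 after PH, and of its 8 markers 0 were called at 2 against 12 weeks in limma and 7 were higher at an unadjusted p under 0.05. Stellate and fibroblast markers, all 10 measured, summed to 12.29 to 12.64, 11.80 to 12.97, 11.20 to 11.35 and 11.41 to 11.45 in the same order, and Des, Reln and Hgf rose at 2 weeks. Without the first 2-week array 0 erythroid and 0 stellate markers were called. Without either 12-week array 1 of each list was, and without the second 2-week array 6 erythroid and 1 stellate. The 9 measured of 10 lymphocyte markers went the other way at 2 against 12 weeks, all 9 below 0 with a median of -0.80. Of these, 0 were called in limma and 6 were lower at an unadjusted p under 0.05. RMA gives no marker a level of 0. The part of these cells in the replication gene levels was not tested.

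**Figure D3:**
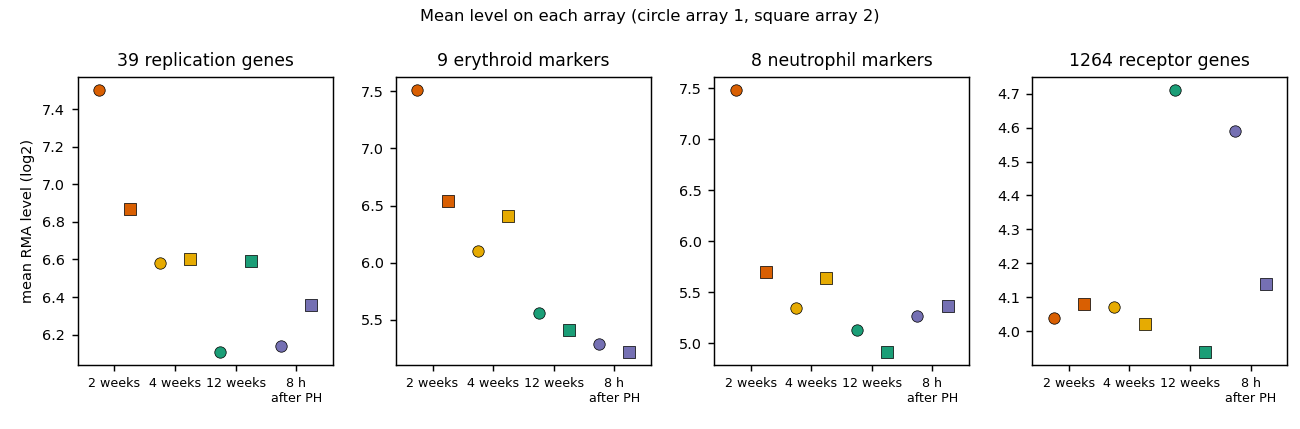
Mean RMA level (log2, vertical; each panel has its own scale and does not start at 0) of the replication genes, erythroid markers, neutrophil markers and receptor genes on each array, circles array 1 and squares array 2. The first 2-week array is highest in the first 3 panels (7.50, 7.51 and 7.48), and the first 12-week and first PH arrays are highest for receptor genes.

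A few other genes of the pathway rose at 2 weeks. Of 51 further replication and S-phase genes, 41 were measured, with a median difference from 12 weeks of 0.57 and 37 of 41 above 0. By limma 5 rose over 12 weeks and 0 fell, where 1.29% of all genes were called higher. Top2a, the topoisomerase that untangles copied DNA, rose by 2.99, Hells, a chromatin remodeller, by 2.48, Uhrf1, which carries DNA methylation through replication, by 2.10, Cdca7, a partner of Hells, by 1.73, and Cdc25a, a phosphatase that activates Cdk2, by 1.49. Top2a read 9.18 and 8.67 at 2 weeks, 7.65 and 7.25 at 4 weeks, 5.38 and 6.49 at 12 weeks and 5.56 and 5.54 after PH, without overlap between ages. Of 17 E2F and pocket protein regulators 12 were measured, and 3 rose, again beside 1.29% of all genes. All 3 were cyclins: Ccna2 by 2.68, Ccne1 by 1.92 and Ccne2 by 1.67 (median of the list 0.90). Leaving out 1 array at a time gave differences of 2.44 to 3.54 for Top2a, 2.13 to 2.82 for Hells and 2.14 to 3.21 for Ccna2. Hells (3.96 and 4.65) and Ccne2 (4.63 and 4.91) read below the receptor genes' 95th percentile on both 12-week arrays (6.36 and 5.23). The other called genes except Cdc25a did so on the first of these arrays. The size of these rises is therefore uncertain. Without the first 2-week array 0 of either list were called, and without the first 12-week array 3 of the further genes were called higher, 1 (Rrm2b) lower, and 1 regulator higher.

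At 4 weeks most members had a mean slightly above that of the same 12-week arrays. The difference had a median of 0.17 (33 of 39 above 0; 0.00 over all genes), 9 genes had separated arrays, all higher, where 13.7% of all genes were so (8 to 11 higher and 1 to 3 lower with the arrays rescaled), and 0 passed in limma (0.11% of all genes did). At an unadjusted p under 0.05 there was 1 (4.47% of all genes), Rrm2, which differed by 1.94 ± 0.46 (3.84-fold, limma adjusted p = 0.437). Tyms, at 8.02 and 8.52 against 6.93 and 8.15, overlapped and differed by 0.73 ± 0.40, and Mcm6 differed by 0.69 ± 0.40, and without the first 12-week array these were 0.12 and 0.39. The median was -0.06 without the first 12-week array and 0.45 without the second, so its sign depended on which adult array was kept.

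The 4-week mean was below the 2-week mean for 38 of the 39 genes. The 2-week excess had a median of 0.56 (0.00 over all genes), and 28 genes had separated arrays, all higher at 2 weeks, where 20.1% of all genes were. In limma 0 passed (0.448% of all genes did), while 13 had an unadjusted p under 0.05, beside 3.8% of all genes. Mcm10 differed by 1.74 ± 0.38 (adjusted p = 0.145), Mcm5 by 1.27 ± 0.48 and Mcm6 by 1.26 ± 0.40. Without the first 2-week array Mcm5 differed by 0.51 and Mcm6 by 0.63. Tk1 was the exception in direction, at -0.17. Over the 3 ages the group means stepped down for 32 of the 39 genes, against 20.9% of all genes, and the arrays did so without overlap for 4, Mcm6, Rrm2, Cdt1 and Chaf1b, against 2.7% of all genes.

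At 8 h after PH the replication genes lay on either side of the 12-week level, again set against the same adult arrays. The differences ran from -0.85 to 0.44 with a median of -0.10 (0.00 over all genes), 16 above and 23 below 0, and 0 passed in limma, where 0.0345% of all genes did. At an unadjusted p under 0.05 there was 1 gene, Rpa1, beside 6% of all genes. Without 1 PH array the median was 0.05 (first left out) or -0.15 (second), and without 1 12-week array -0.27 (first) or 0.08 (second), so it has no settled direction. Separated arrays were found for 12 genes, 11 lower after PH (15.2% of all genes were lower) and 1 higher, Fen1 (13.7% were higher). Rescaling the arrays gave 8 lower and 3 higher (median centring), 11 and 3 (75th percentile) or 7 and 3 (quantile normalization). Orc6 was the member after Fen1 with the largest upward difference, at 5.76 and 6.22 after PH against 5.46 and 5.79 at 12 weeks.

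The 3 members farthest from the adult level after PH were lower. Rpa1, the large subunit of the single-strand binding protein, read 7.75 and 7.71 after PH, 8.12 and 9.03 at 12 weeks, 8.72 and 8.58 at 4 weeks and 9.32 and 8.48 at 2 weeks. The PH arrays were below all 6 others, and the difference from 12 weeks was -0.85 ± 0.37 (limma adjusted p = 0.822; -0.39 without the second 12-week array). Mcm5 read 5.41 and 5.52 after PH against 5.84 and 6.57 at 12 weeks, a difference of -0.74 ± 0.48 (-0.37 without the second 12-week array and -1.11 without the first). Pole, the catalytic subunit of the leading-strand polymerase, read 5.73 and 5.96 against 6.38 and 6.66, a difference of -0.67 ± 0.30. These 3 were separated from the 12-week arrays but did not pass. On the first PH array Mcm5 (5.41) and Pole (5.73) lay below the receptor genes' 95th percentile there (5.92). Mcm5 also did on the first 12-week array (5.84, against 6.36). The size of these 2 differences is therefore uncertain. Mcm2 read 7.34 and 7.44 after PH, inside the 12-week range of 6.98 to 7.64. Of the 41 further replication genes and the 12 regulators, 0 passed by limma in this comparison, and 2 and 0 had an unadjusted p under 0.05.

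Set directly against the 2-week liver, the liver after PH had the lower mean for all 39 genes (37 of 39 without the first PH array or without the first 2-week array). The median difference was -0.81 (0.03 over all genes), 34 genes had separated arrays, all lower after PH, where 22.2% of all genes were, and 24 had an unadjusted p under 0.05 in that direction, beside 6.95% of all genes. In limma 3 fell, against 1.36% of all genes. Rrm2 fell by 2.60 on the log2 scale (SE 0.46; 6.08-fold, adjusted p = 0.0300), Mcm5 fell by 2.48 (SE 0.48; 5.57-fold, adjusted p = 0.0421) and Mcm10 fell by 2.21 (SE 0.38; 4.64-fold, adjusted p = 0.0252). On the first PH array Rrm2 (5.83) and Mcm5 (5.41) lay below the receptor genes' 95th percentile there (5.92), while Mcm10 (6.19) lay above it. Mcm6 lay at -1.88 ± 0.40 (adjusted p = 0.0560). Leaving out the first or the second PH array or the first 2-week array left 0 called, and leaving out the second 2-week array gave 6: Mcm5, Mcm6, Rrm2, Cdc6, Cdt1 and Chaf1b. The median was -0.54 without the first 2-week array and -1.20 without the second. This comparison shares its 2-week arrays with the comparison of the ages, so both rest on the same 2 libraries.

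The smallest differences from 2 weeks were those of Orc6 (-0.15), Pola1 (-0.17) and Fen1 (-0.23). Beyond the members, Top2a fell by 3.38, Uhrf1 fell by 2.27, Cdca7 fell by 1.73 and Asf1b, a histone chaperone, fell by 1.36 (limma). The cyclins Ccna2, Ccne2 and Ccne1 had differences of -2.99, -1.82 and -1.39, all called. Asf1b, Ccna2 and Ccne2 read below the receptor genes' 95th percentile on both PH arrays (5.92 and 5.46). Top2a and Uhrf1 did so on the first, so the size of these falls is uncertain. Without the first 2-week array or either PH array 1 of the 4 further genes, Top2a, was called, and of the cyclins 0, except Ccna2 without the second PH array. The erythroid markers Alas2, Slc4a1 and Ahsp were called lower after PH as well, with differences of -3.38, -2.80 and -3.11 (1 called without either PH array). The 10 stellate and fibroblast markers had a median difference of -1.12, all below 0 with separated arrays, and Reln was called at -1.56 (limma adjusted p = 0.0376) but not without the first 2-week array or either PH array. Of the neutrophil markers 6 of 8 were below 0, with a median of -1.0 and 0 called in limma (4 at an unadjusted p under 0.05). The part of these cells in the difference was not tested.

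**Figure D4:**
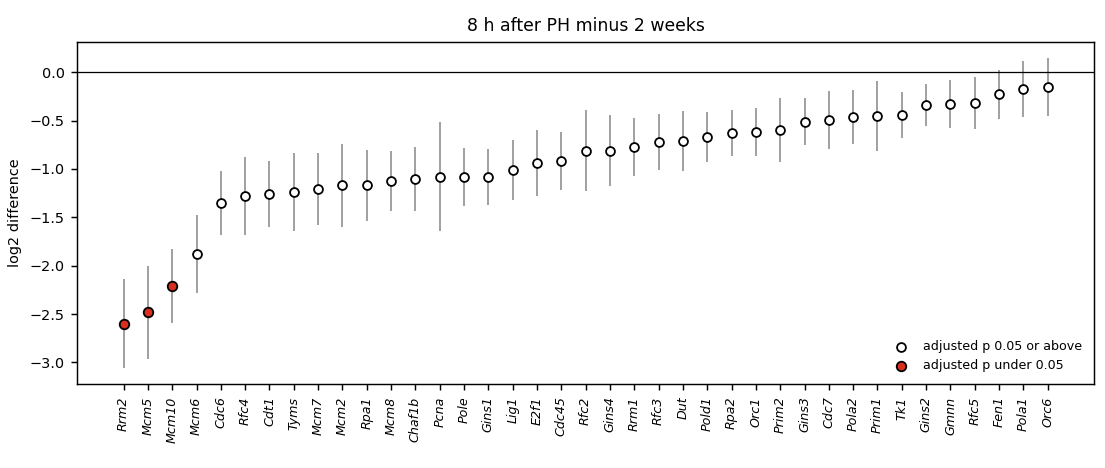
Log2 difference of 8 h after PH from 2 weeks (vertical, bars are the moderated standard error) for the 39 genes in order of size; red points have an adjusted p under 0.05. Every point lies below 0, from -2.60 for Rrm2 to -0.15 for Orc6.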

How the data were processed

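The deposited table holds log2 values; the submitters' processing notes name RMA, which the authors ran before depositing, and Affymetrix Expression Console. RMA subtracts background, gives arrays one distribution and combines probes. Versions and filters: not given in the sources used here. No detection calls were used, and the number of arrays limits the precision. Of 29214 probe sets, the platform annotation listed 15633 with a gene, 15310 with 1 symbol and 323 with several, and 13581 were unnamed here. Symbols were matched by gene identifier to GRCr8 (15279 matched), used for names and promoters only.

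The means of the 4 groups were fitted together (limma 3.58.1, R 4.3.3, lmFit and eBayes, 4 residual and 4.27 prior degrees of freedom) and compared as contrasts, two-sided, Benjamini-Hochberg over 14506 genes, called under 0.05. On simulated data for 2 against 12 weeks (10 simulations of 14506 genes, 200 changed) it found 0.4% of genes changed by 0.5 log2 units, 15.2% by 1, 94.4% by 2 and 99.6% by 3, and 7.34% of its calls were unchanged genes. The simulated errors were independent, with the same spread on every array of a gene. The real arrays differed in spread: 12.7% of genes were 2-fold apart between the 12-week arrays and 3.31% between the 2-week arrays. The simulated shares therefore cannot be carried over to these data.

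Members and lists were chosen with earlier results of these data known. All measured members could be named. Full values went to those called, the 3 with the largest difference in a comparison and Mcm2, Pcna, Rrm2, Cdc6, Cdt1, Gmnn, E2f1 and Tk1. Of other genes, called ones were named. Lists got no test. Alternatives were other scalings, filters, probe set rules and variance models, a replicate block, a receptor gene covariate and leaving out each array.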

Additional observations from a re-analysis of the deposited data

Results flagged for a closer look

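Among the members and the pathway genes, the difference from 12 weeks was larger at 2 than at 4 weeks for 2 genes by the test of that difference (limma), both regulators of S-phase entry. Ccne1, the cyclin E partner of Cdk2, read 7.59 and 7.16 at 2 weeks, 5.66 and 5.70 at 4 weeks and 5.33 and 5.58 at 12 weeks. The 2-week level exceeded the 4-week level by 1.69 (adjusted p = 0.0392), and this passed in 7 of 14 alternatives (adjusted p 0.0189 to 0.256). Cdc25a read 8.30 and 8.15 at 2 weeks, 6.86 and 6.76 at 4 weeks and 6.54 and 6.93 at 12 weeks. The excess was 1.42 (adjusted p = 0.0458), which passed in 7 of 15 alternatives (adjusted p 0.0170 to 0.293). With any 1 of the 2-week or 4-week arrays left out, 0 of these 2 genes were called. A test for a single outlying value was not run, since groups had 2 arrays.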

How the results depend on the processing

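The counts of called members that moved by over 1.5 times were these. At 2 against 12 weeks, 3 became 1 with all probe sets tested, 1 with array weights and 0 with only the 2 groups fitted, and ran from 0 to 4 when 1 array was left out. After PH against 2 weeks, 3 became 0 with all probe sets tested and 7 with array weights, and ran from 0 to 6 without 1 array, while the median of -0.81 ran from -1.20 to -0.54. At 2 against 4 weeks, 0 became 1 with array weights and 1 with the receptor gene covariate, Mcm10 both times. Calls over all genes moved as well. Those lower after PH than at 2 weeks went from 198 to 354 with array weights and to 146 with all probe sets tested. Those higher at 2 than at 12 weeks went from 187 to 96 with array weights, 160 with all probe sets and 77 with only the 2 groups fitted. They also moved when 1 array was left out. After PH and at 4 weeks against 12 weeks, 0 were called in every alternative run. Leaving out genes below the median level kept 16 members, so counts of separated arrays fell by construction to 1 after PH, 13 at 2 weeks and 4 at 4 weeks against 12 weeks, 12 at 2 against 4 weeks and 15 after PH against 2 weeks, the genes stepping down with age became 2, and the median at 2 against 12 weeks became 1.02. Pcna at 4 against 12 weeks turned from 0.56 to -0.07 with the covariate and ran from -0.28 (without the first 12-week array) to 1.40 when 1 array was left out. Rfc2 at 2 against 4 weeks, 0.54, likewise ran from -0.08 (without the first 2-week array) to 1.15. The 86 member differences tracked were chosen for being called or large in the main fit, so most signs were likely to hold. Of their values under the alternatives, 1247 kept their direction and 3 turned, those named. Over all 39 members signs were less stable. At 4 against 12 weeks 33 were above 0, and 18 without the first 12-week array. After PH against 12 weeks 16 were above 0, with 3 without the first 12-week array and 22 without the second. The cause was not tested.

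Centring arrays on their medians moved the median of all genes to -0.13 at 2 against 12 weeks and to 0.18 after PH against 2 weeks, where the members had 0.57 and -0.66, and calls over all genes in the last comparison went from 115 higher and 198 lower to 172 and 182. Titles number the arrays of a group 1 and 2. Deviations of same-numbered arrays correlated between groups over genes with r = 0.023 to 0.568, but with 2 numbers this does not settle a pairing. With the replicate number as a block, 3 members were called at 2 against 12 weeks and 4 after PH against 2 weeks, and calls over all genes after PH against 12 weeks went from 3 higher and 2 lower to 24 and 17. In the other comparisons the block gave 0 called members.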

Other observations

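Chosen after their values were seen, 2 genes of the further replication list did not follow the members. Chek1, the kinase that guards stalled forks, read 8.37 and 8.69 after PH, 7.05 and 8.16 at 12 weeks, 7.79 and 6.93 at 2 weeks and 6.61 and 6.57 at 4 weeks, with both PH arrays above all others, and it passed in no comparison by limma. Hells read 6.90 and 8.19 at 4 weeks, 7.05 and 6.51 at 2 weeks, 3.96 and 4.65 at 12 weeks and 4.41 and 4.94 after PH, so that the 4-week arrays overlapped the 2-week arrays and their mean was the higher.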
